A study of Mus musculus with 6 samples.

Results

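CXC chemokines are small secreted proteins that draw leukocytes along a concentration gradient, named for a pair of cysteines that 1 other residue separates. Those with the residues glutamate, leucine and arginine before that motif (the ELR group) act on the receptor Cxcr2 and recruit neutrophils, whereas Cxcl9 and Cxcl10 are induced by interferon and act on Cxcr3 of T and NK cells. Cxcl13 attracts B cells through Cxcr5 and is made by macrophages of the peritoneal cavity, among other cells. The 10 genes described here were taken by name from the array annotation: Cxcl1, Cxcl2, Cxcl3 and Ppbp of the ELR group, Pf4, the interferon-induced Cxcl9 and Cxcl10, Cxcl13, Cxcl14, and the membrane-bound Cxcl16. Each had 1 probe set, so the members are 10 of 25206 probe sets, of which 23185 carry 1 gene name.

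The cells were peritoneal macrophages elicited with thioglycollate, an irritant that recruits monocytes and macrophages to the cavity. C57BL/6J mice lacking Tet2, a dioxygenase that oxidises 5-methylcytosine in DNA, and their wild-type littermates each received 1 mL of aged 4% Brewer's medium in the peritoneum, and cells were taken on day 4. Both groups were plated in serum-containing RPMI without any treatment, and RNA was isolated 10 h later and hybridised to whole-transcript arrays, 3 per genotype (replicates 4, 5 and 6). The labels give neither the age of the mice nor the construction of the Tet2 allele, and whether each biological replicate was a separate animal is not stated. P-values therefore reflect the variation among these 6 samples, which could be partly technical.

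Before any result, the labels need a caveat. For 4 of the 6 samples the title and the genotype characteristic name opposite genotypes, and the groups here follow the title. Wild-type replicate 4 and Tet2-/- replicate 5 are the only 2 samples on which both fields agree. Tet2 itself was at 4.35, 3.74 and 3.79 in wild-type replicates 4, 5 and 6 and at 3.80, 4.05 and 3.67 in the Tet2-/- replicates (log2 values throughout), so the groups overlapped, and since the deleted part of the gene is not given, this level does not check the labels. The array labelled Tet2-/- replicate 6 stood apart from the rest: its mean correlation with the other arrays was 0.982 against 0.986 to 0.989, and its mean over 10 macrophage markers (Adgre1, Csf1r, Itgam and others) was 8.40 against 8.68 to 9.04 on the other 5. The macrophage label otherwise matched the markers, none of the 10 having a mean below 6.72. Array medians lay between 2.76 and 2.93, the highest being that of Tet2-/- replicate 6. That array also had the highest lower quartile (1.90 against 1.72 to 1.81) and the narrowest interquartile range (2.99 against 3.16 to 3.33). Its low probe sets thus ran higher in general, and its values on single genes share this narrower scale.

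Of the 10 genes, 8 lie on mouse chromosome 5. RefSeq (GRCm38.p6) orders the family there as Cxcl5, Ppbp, Pf4, Cxcl3, Cxcl15, Cxcl1 and Cxcl2, followed after other genes by Cxcl9, Cxcl10, Cxcl11 and Cxcl13. Cxcl14 is on chromosome 13 and Cxcl16 on chromosome 11. Promoter sequences (250 bases before to 50 after the start, RefSeq, GRCm38.p6) were at hand for 9 of the 10, all but Cxcl16, and were searched on both strands for 3 motifs: GGGA, any base, TT, any base, CC (a form of the NF-kB site); GAAA, any 2 bases, GAAA (a form of the interferon-stimulated response element); and TTC, any 3 bases, GAA (the STAT site known as GAS). The NF-kB letters were found in 4 of the 9 and in 1.2% of all 32851 promoters, the response element letters in 2 of the 9 and in 3.44% of all, and the GAS letters in 1 of the 9 and in 8.30% of all. No matches overlapped each other.

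The stretches below are shown because Cxcl1, Cxcl2 and Cxcl3, the neutrophil attractants, hold the same 10 letters close to their starts, while Cxcl10 and Cxcl14 hold interferon-type letters. Capitals mark the matches, and each run is read in the direction of its gene.
Cxcl1 (chr5:90891139-90891218, + strand): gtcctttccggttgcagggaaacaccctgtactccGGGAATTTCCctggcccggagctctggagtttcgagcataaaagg
Cxcl2 (chr5:90903767-90903846, + strand): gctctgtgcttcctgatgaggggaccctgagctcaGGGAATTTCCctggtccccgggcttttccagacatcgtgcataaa
Cxcl3 (chr5:90785993-90786072, + strand): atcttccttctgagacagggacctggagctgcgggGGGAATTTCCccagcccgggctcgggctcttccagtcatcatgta
Cxcl10 (chr5:92348973-92349112, - strand): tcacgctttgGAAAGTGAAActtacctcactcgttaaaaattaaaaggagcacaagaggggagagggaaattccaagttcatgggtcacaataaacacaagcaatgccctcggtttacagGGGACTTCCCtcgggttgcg
Cxcl14 (chr13:56296689-56296767, - strand): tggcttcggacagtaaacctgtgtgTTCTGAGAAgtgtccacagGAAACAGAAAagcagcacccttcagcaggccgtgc
The first base of the NF-kB letters lay 71, 97, 73 and 103 bases before the start of Cxcl1, Cxcl2, Cxcl3 and Cxcl10. In Cxcl10 the response element letters began 213 bases before the start, and in Cxcl14 the GAS letters began at 191 and the response element letters at 172. A match describes the letters only.

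The comparison of genotypes asks which chemokine transcripts differ in elicited macrophages when Tet2 is absent. Cxcl2 and Cxcl13 had higher means in the Tet2-/- libraries, by 0.85 and 0.84, and Cxcl14 a lower mean, by 0.78 (a difference of -0.78), while the differences of the other 7 lay between -0.33 and 0.43. None of the 10 passed an adjusted p of 0.05 in limma's moderated test over all 25206 probe sets (adjusted p = 0.998 for each), and 0% of all probe sets passed. At an unadjusted p under 0.05 the test named 3 of the 10 (Cxcl2, Cxcl13 and Cxcl14), where 3.61% of all probe sets were named. In 1 of the 10, Cxcl14, the genotypes did not overlap, against 7.41% of all probe sets. Of the members, 6 had higher and 4 lower means in Tet2-/-, and the median difference was 0.18, whereas 49.2% of all probe sets were higher and their median difference was 0.0. The median of the members was 0.051 without Tet2-/- replicate 5, and -0.035 over the members among the brighter probe sets.

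**Figure D1:**
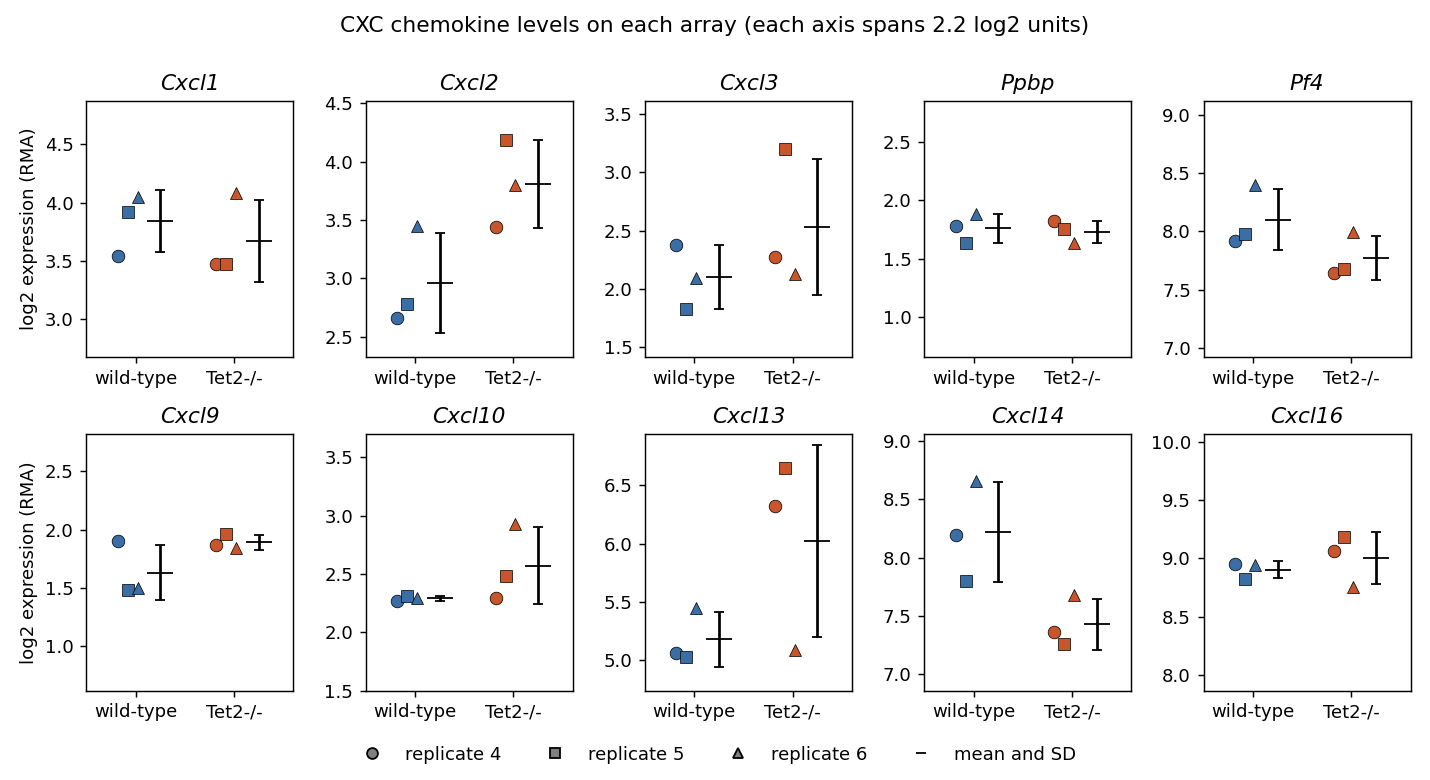
Log2 expression of the 10 CXC chemokines on each of the 6 arrays (vertical axis, each spanning the same number of log2 units), with wild-type in blue and Tet2-/- in orange, symbols for replicates 4, 5 and 6, and the mean with its SD (n = 3) beside them. Cxcl14 is the gene whose groups do not overlap, and for Cxcl13 the Tet2-/- replicate 6 array, at 5.09, sits among the wild-type arrays.

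**Figure D2:**
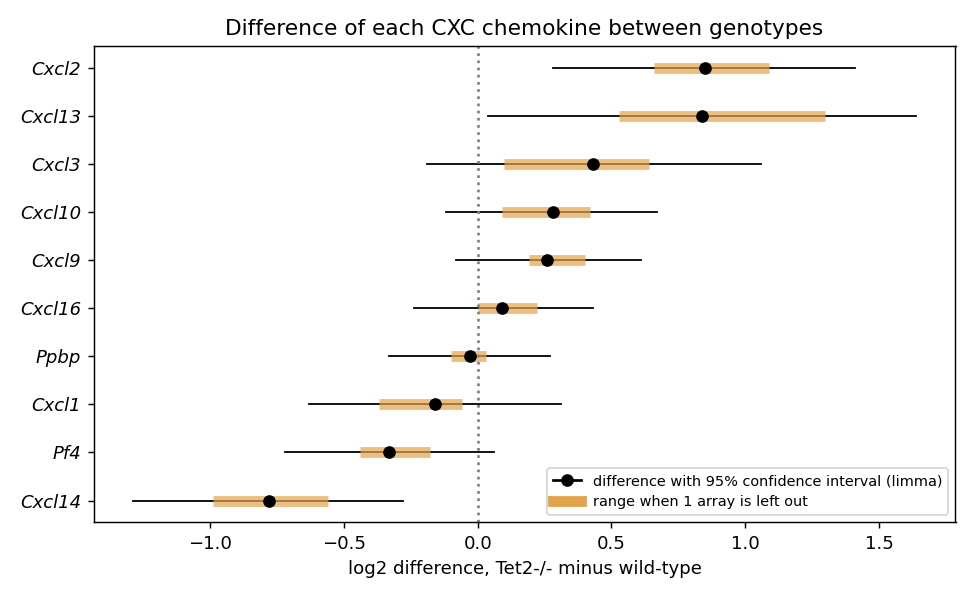
Difference in log2 level, Tet2-/- minus wild-type (horizontal axis), for each gene, with its 95% confidence interval from limma as a black line and the range of values when 1 array is left out as an orange bar. The intervals of Cxcl2, Cxcl13 and Cxcl14 leave out 0, before any adjustment for the number of genes.

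Among the ELR chemokines, Cxcl2, known as macrophage inflammatory protein 2, was at 2.66, 2.78 and 3.45 in wild-type replicates 4, 5 and 6 and at 3.44, 4.19 and 3.80 in Tet2-/-. The groups touched at 1 point, since the highest wild-type array was 0.01 above the lowest Tet2-/- array. On wild-type replicates 4 and 5 Cxcl2 was below the array medians of 2.77 and 2.82, and signal over background was not checked. Means were 2.96 ± 0.426 and 3.81 ± 0.375 (SD, n = 3 each), which is 1.80-fold, or 0.85 on the log2 scale (SE 0.250, 95% interval 0.28 to 1.41, limma adjusted p = 0.998). Leaving out single arrays gave 0.66 to 1.09, and grouping by the genotype characteristic in place of the title gave 0.173.

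Cxcl1, the keratinocyte-derived chemokine and neighbour of Cxcl2, had another order of arrays. It was at 3.54, 3.92 and 4.05 in wild-type and at 3.47, 3.47 and 4.08 in Tet2-/- replicates 4, 5 and 6. Tet2-/- replicate 6 was thus the highest array of all, next to wild-type replicate 6, and the other Tet2-/- arrays were the lowest. The difference was -0.16 with a 95% confidence interval of -0.63 to 0.31 (limma adjusted p = 0.998), and it ran from -0.37 without Tet2-/- replicate 6 to -0.06 without wild-type replicate 6 or without Tet2-/- replicate 4 or 5, and turned to 0.117 by the characteristic.

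Cxcl3, another ligand of Cxcr2, was at 2.38, 1.83 and 2.09 in wild-type and at 2.27, 3.20 and 2.13 in Tet2-/- replicates 4, 5 and 6. A single array, Tet2-/- replicate 5, was above the rest, and the others overlapped. The difference of 0.43 (95% interval -0.19 to 1.06, limma adjusted p = 0.998) became 0.10 without that array. Ppbp, the platelet basic protein whose cleaved form acts on Cxcr2, spanned only 1.63 to 1.88 over the 6 arrays, with means of 1.76 ± 0.126 and 1.73 ± 0.0961 (SD, n = 3 each). Its values lay around the lower quartile of each array (1.72 to 1.90), and its difference of -0.03 had a 95% confidence interval of -0.33 to 0.27 (limma adjusted p = 0.998).

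The 3 ELR genes with the same NF-kB letters were compared across arrays, and no pair passed. Over the 6 arrays, Cxcl1 and Cxcl2 had a Pearson r of -0.0408 (exact permutation p = 0.950, adjusted 0.950) and a Spearman rho of 0.0580 (exact permutation p = 0.933, adjusted 0.933). For Cxcl1 and Cxcl3, r was -0.667 (exact permutation p = 0.0722, adjusted 0.361) and rho -0.667 (exact permutation p = 0.161, adjusted 0.806). For Cxcl2 and Cxcl3, r was 0.626 (exact permutation p = 0.172, adjusted 0.431) and rho 0.257 (exact permutation p = 0.658, adjusted 0.933). All tests were two-sided and adjusted over 5 pairs, the other 2 being Cxcl9 with Cxcl10 (r = 0.301, exact permutation p = 0.711, adjusted 0.924; rho = -0.0870, exact permutation p = 0.867, adjusted 0.933) and Pf4 with Ppbp (r = 0.197, exact permutation p = 0.739, adjusted 0.924; rho = -0.0580, exact permutation p = 0.933, adjusted 0.933). None of the 5 pairs passed, and without the 2 arrays farthest from the median of the first gene the 5 values of r were -0.574, -0.725, 0.780, -0.444 and -0.623 in the order given.

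**Figure D3:**
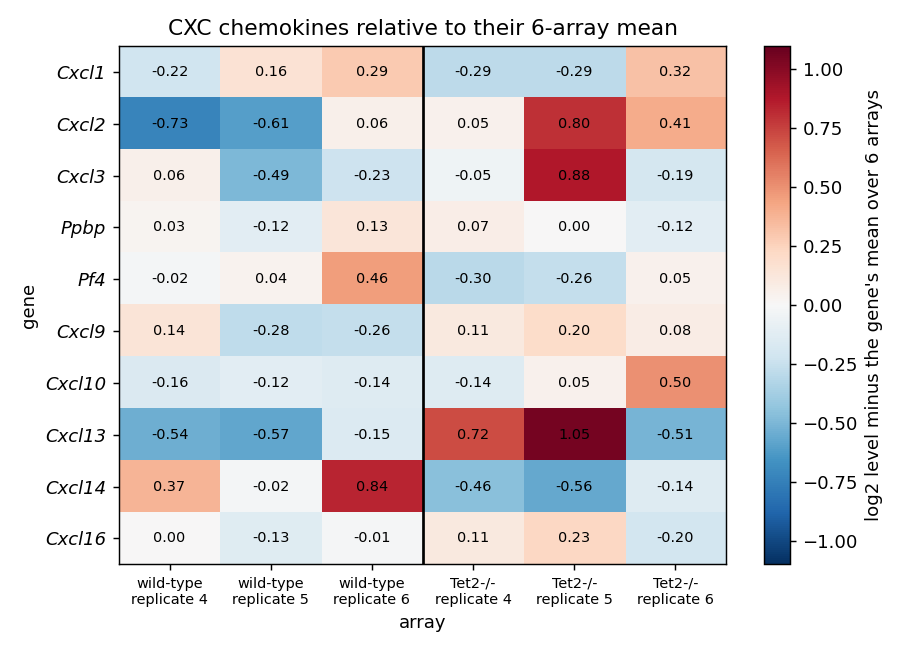
Level of each CXC chemokine (rows) on each array (columns) minus its own mean over the 6 arrays, in log2 units, with red above and blue below the mean and the wild-type arrays left of the line. Tet2-/- replicate 5 is the highest array for 5 of the 10 genes (Cxcl2, Cxcl3, Cxcl9, Cxcl13 and Cxcl16), and wild-type replicate 6 for 3 (Ppbp, Pf4 and Cxcl14).

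Pf4, or platelet factor 4, is a heparin-binding chemokine of platelet granules that macrophages also transcribe. It was at 7.92, 7.98 and 8.40 in wild-type and at 7.64, 7.68 and 7.99 in Tet2-/- replicates 4, 5 and 6. Tet2-/- replicates 4 and 5 were below every wild-type array, while replicate 6 was within the wild-type range. The difference was -0.33 (0.796-fold, 95% confidence interval -0.72 to 0.06, limma adjusted p = 0.998), and -0.18 without wild-type replicate 6. It turned to 0.17 when genotypes followed the characteristic. The platelet markers gave these values beside it: of 10 measured, 5 were higher and 5 lower in Tet2-/-, with a median difference of 0.03. The list's mean level was 2.82 to 2.99 in wild-type and 3.04 to 3.26 in Tet2-/-, where Pf4 had the lower mean. The mean difference of the list was 0.25, and its largest differences were those of Nfe2 and F5. The platelet receptor chains Gp9 and Itga2b differed by -0.13 and -0.04 around means of 3.29 and 2.93 in wild-type. The chains Gp1bb, Gp5 and Gp6 differed by -0.11, 0.11 and 0.34. The 3 platelet-list genes with the smallest unadjusted p were Nfe2 (1.05), Tubb1 (0.29) and F5 (1.07), all with higher means in Tet2-/-. F5, also a gene of resident peritoneal macrophages, ran from 0.40 to 1.82 when single arrays were left out, and its Tet2-/- replicate 6 value, 4.41, lay inside the wild-type range of 4.33 to 5.60.

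The interferon-induced pair was low on the scale in these unstimulated cells. Cxcl9 was at 1.90, 1.48 and 1.50 in wild-type and at 1.87, 1.96 and 1.84 in Tet2-/- replicates 4, 5 and 6, so wild-type replicate 4 lay among the Tet2-/- arrays. The difference of 0.26 had a 95% confidence interval of -0.08 to 0.61 (limma adjusted p = 0.998) and was 0.40 without wild-type replicate 4. Cxcl10 was at 2.27, 2.31 and 2.29 in wild-type and at 2.29, 2.48 and 2.93 in Tet2-/-, with replicate 6 the highest. Its difference of 0.28 (95% interval -0.12 to 0.67, limma adjusted p = 0.998) was 0.095 without Tet2-/- replicate 6. When genotypes followed the characteristic, Cxcl9 and Cxcl10 turned to -0.223 and -0.137.

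Other interferon-response genes gave no called change. Of 27 listed, 25 were measured, and 18 had higher and 7 lower means in Tet2-/- (median difference 0.11, 0 past the adjusted threshold and 0 at an unadjusted p under 0.05). The smallest unadjusted p values belonged to the transcription factor Irf1 (difference 0.33), the guanylate-binding protein Gbp7 (0.50) and the antiviral enzyme Rsad2 (-0.34). On Tet2-/- replicate 6, the array with the highest Cxcl10, the list stood 0.14 below its 6-array mean (a deviation of -0.14). Its genes were split there. Ifit2, Ifit3, Isg15, Mx2, Gbp5 and Ido1 were, like Cxcl10, highest on that array. Irf7, Irf9, Mx1, Oas1a, Usp18, Gbp7, Ccl5 and Cd274 were lowest on it. The NF-kB early-response list, 23 of 24 measured, had 14 higher, 8 lower and 1 equal (median 0.05, 0 past the adjusted threshold). It had 3 genes at an unadjusted p under 0.05 and 3 whose genotypes did not overlap (3.61% and 7.41% of all probe sets). By unadjusted p its leading genes were the adhesion molecule Icam1 (0.57), the cytokine Il1a (-0.43) and the cytokine Il1b (0.75).

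Cxcl13, the B-cell attractant, varied most over the 6 arrays (SD 0.710). It was at 5.06, 5.03 and 5.45 in wild-type and at 6.32, 6.65 and 5.09 in Tet2-/- replicates 4, 5 and 6. Tet2-/- replicates 4 and 5 were above every wild-type array, and replicate 6 was among them. Means were 5.18 ± 0.234 and 6.02 ± 0.822 (SD, n = 3 each), which differ by 0.84 (SE 0.352, 1.79-fold, 95% interval 0.04 to 1.64, limma adjusted p = 0.998). It was 1.305 without Tet2-/- replicate 6 (limma adjusted p = 0.0574) and 0.525 without Tet2-/- replicate 5. The grouping by characteristic gave 0.22.

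The lists of resident macrophage and B-cell markers were, as means, highest on Tet2-/- replicates 4 and 5, as was Cxcl13. Some other lists were also highest on these arrays, by smaller amounts. There the interferon-response list stood 0.12 and 0.20 above its 6-array mean and the NF-kB list 0.08 and 0.19. The platelet list stood 0.10 and 0.25 above, and the chemokine-processing list 0.17 and 0.15. The remaining lists, that of macrophage markers included, did not have this order. Of 12 measured genes of the resident large peritoneal macrophage, 10 were higher and 2 lower in Tet2-/- (median 0.55, 0 past the adjusted threshold). At an unadjusted p under 0.05 there were 4 of the 12 (3.61% of all probe sets). Relative to its 6-array mean this list stood at -0.12, -0.52 and -0.33 in wild-type and at 0.54, 0.86 and -0.44 in Tet2-/- replicates 4, 5 and 6. Its mean level ran from 5.05 to 5.45 in wild-type and from 5.13 to 6.42 in Tet2-/-, and its genes with the smallest unadjusted p were Cd5l (0.74), Alox15 (2.08) and Icam2 (1.06). Of 11 measured B-cell markers, 10 were higher and 1 lower (median 0.41), and 4 had an unadjusted p under 0.05 (3.61% of all). The B-cell list stood at -0.36, -0.27 and -0.20 in wild-type and at 0.25, 0.80 and -0.23 in Tet2-/-, with mean levels of 2.72 to 2.88 and of 2.85 to 3.88. Cd22 (-0.80), Cd79b (1.55) and Cd79a (1.59) had the smallest unadjusted p among them, and Cd22 went against the list, being higher on all 3 wild-type arrays. The part of these cells in the Cxcl13 values was not tested, and in such a bulk sample fewer cells of a type and less RNA per cell cannot be told apart.

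**Figure D4:**
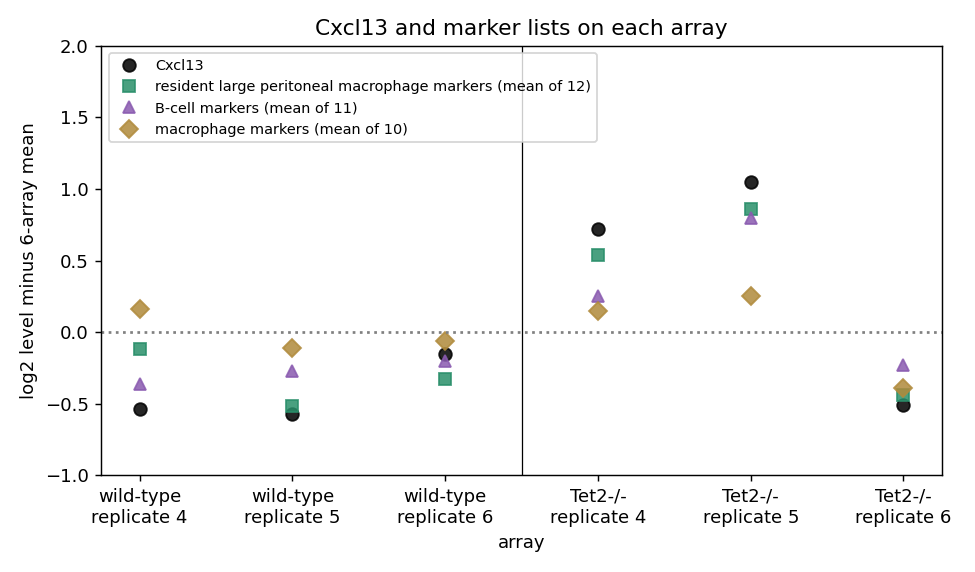
Cxcl13 and the means of 3 marker lists on each array, as log2 level minus the 6-array mean (vertical axis), with wild-type arrays left of the line. Cxcl13, the resident macrophage list and the B-cell list are highest on Tet2-/- replicates 4 and 5, and on replicate 6 they fall within the range of the wild-type arrays.

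Cxcl14, a chemokine expressed without stimulus in many epithelia and whose receptor is not settled, had the lower mean in Tet2-/-. It was at 8.19, 7.80 and 8.66 in wild-type and at 7.36, 7.26 and 7.68 in Tet2-/- replicates 4, 5 and 6. Every Tet2-/- array was below every wild-type array, by 0.12 at the closest point, and 4.07% of all probe sets had groups apart in this direction. Means were 8.22 ± 0.431 and 7.43 ± 0.219 (SD, n = 3 each), which differ by -0.78 (SE 0.222, 0.581-fold, 95% interval -1.29 to -0.28, limma adjusted p = 0.998). Single arrays left out gave -0.99 to -0.56 and -0.907 without Tet2-/- replicate 6. By the genotype characteristic in place of the title the difference was 0.163, the opposite sign.

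Fibroblast and mesothelial markers, included because stromal and epithelial-like cells of the cavity wall can express Cxcl14, gave these values beside it. Of 15 measured, 10 were higher and 5 lower (median 0.05), with list means of 4.26 to 4.72 in wild-type and 4.44 to 4.74 in Tet2-/-. They were not at the low end throughout, the collagen gene Col1a1 having means of 6.78 and 6.72 and the proteoglycan gene Dcn 7.11 and 7.15. By unadjusted p the leading genes were Lum (0.29), Col3a1 (0.42) and Pdgfra (0.31). This list was highest on Tet2-/- replicate 4 (4.74), where Cxcl14 was at 7.36, and next on wild-type replicate 6 (4.72), where Cxcl14 was at 8.66. Its genes did not share 1 order of arrays. Col1a1, Col1a2, Col3a1, Dcn and Pdgfra were highest on wild-type replicate 6 (7.39, 6.72, 6.05, 7.78 and 5.51), as was Cxcl14. Upk1b, Upk3b and Wt1 were highest on Tet2-/- replicate 4 (6.53, 4.90 and 5.15), and Lum on Tet2-/- replicate 6 (1.70). The part of these cells in the Cxcl14 values was not tested.

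Cxcl16, the membrane-anchored ligand of Cxcr6 that also serves as a scavenger receptor for oxidised lipoprotein, spanned 8.75 to 9.18 over the 6 arrays. It was at 8.95, 8.82 and 8.94 in wild-type and at 9.06, 9.18 and 8.75 in Tet2-/- replicates 4, 5 and 6. The wild-type arrays lay inside the range of the Tet2-/- arrays, and the difference was 0.09 with a 95% confidence interval of -0.24 to 0.43 (limma adjusted p = 0.998). Leaving out Tet2-/- replicate 5 gave 0.002, and leaving out replicate 6 of that group 0.217. Adam10, the protease known to shed Cxcl16 from the membrane, was at 8.92, 8.50 and 8.40 in wild-type and at 8.92, 9.32 and 8.43 in Tet2-/-. The list of chemokine-processing enzymes, which also held the invariant chain Cd74, had 3 of 8 genes higher and 5 lower in Tet2-/- (median -0.06). Its leading genes by unadjusted p were the gelatinase Mmp9 (-0.30), the sheddase Adam17 (0.27) and the macrophage elastase Mmp12, which in mice trims ELR chemokines (-0.17). For 2 of the 8, Mmp9 and Mmp12, the genotypes did not overlap (7.41% of all probe sets), and 0 of the 8 passed at an unadjusted p under 0.05 (3.61% of all).

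Of the 10 CXC and atypical chemokine receptors listed, not all of which bind the 10 ligands, 6 had a mean below the median probe set. The neutrophil receptor Cxcr2 had means of 2.60 and 2.65 in wild-type and Tet2-/-, and the related Cxcr1 differed by 0.05. Cxcr3, the receptor of Cxcl9 and Cxcl10, differed by -0.24, Cxcr5, the receptor of Cxcl13, by 0.30, and Cxcr6, the receptor of Cxcl16, by 0.11. Cxcr4, the receptor of Cxcl12, was at 9.0, 9.01 and 8.90 in wild-type and at 9.31, 9.22 and 8.81 in Tet2-/-. Of the atypical receptors, which take up chemokines without classical signalling, Ackr1, Ackr2, Ackr3 and Ackr4 differed by 0.09, -0.04, 0.30 and -0.04. None of the 10 receptors passed at an unadjusted p under 0.05, and 7 were higher and 3 lower.

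The CXC ligands outside the 10 also showed no called difference. Cxcl12, the stromal ligand of Cxcr4, was at 3.71, 3.63 and 4.35 in wild-type and at 4.48, 3.69 and 3.34 in Tet2-/-, so the groups overlapped. The differences of Cxcl5, Cxcl15 and Cxcl17 were -0.09, -0.05 and 0.0. Cxcl11, which the RefSeq table of this C57BL/6J assembly classes as a transcribed pseudogene, was at 2.47, 3.06 and 2.75 in wild-type and at 2.88, 2.60 and 3.63 in Tet2-/-. It was highest on Tet2-/- replicate 6, as was its chromosomal neighbour Cxcl10. By mean level Cxcl10 lay above 42.4% of probe sets and Cxcl11 above 51.5%. The part of that array's narrower scale in these values was not tested.

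Genes with the pattern most like those of the 3 most variable members were listed by Pearson r over the 6 arrays among 11765 named genes whose mean was above the median probe set. For Cxcl13 they were Lrg1 (r = 0.994), Ect2 (0.993) and Limd2 (0.992), and Lrg1 is also 1 of the 13 genes listed for resident macrophages. For Cxcl2 they were Gm10334 (0.991), Nfatc2ip (0.972) and Vmn1r159 (0.965), and for Cxcl14 Cd36 (0.981), Ttc7b (0.978) and Mmp9 (0.973). Over so few arrays high values are common: 171, 34 and 53 genes had an r over 0.9 with Cxcl13, Cxcl2 and Cxcl14. The arrays share their normalization, and these values describe likeness only.

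Markers of the remaining cell types had 0 genes past the adjusted threshold. Of 14 neutrophil markers, the cells that the ELR chemokines recruit, 9 were higher and 5 lower (median 0.11, mean level 3.10 to 3.16 in wild-type and 3.15 to 3.29 in Tet2-/-), led by Mpo (0.46), Mmp9 (-0.30) and Csf3r (0.30). Levels within this list varied. Ly6g had means of 1.88 and 2.16, with 2.87 on Tet2-/- replicate 6, and S100a9 had 1.95 and 1.88. S100a8 had means of 6.29 and 6.47, and Csf3r of 6.36 and 6.66. Of 10 dendritic-cell markers 8 were higher and 2 lower (median 0.06), led by Xcr1 (-0.18), Ccr7 (0.31) and Snx22 (0.11). Among 11 measured T and NK cell markers, the targets of Cxcl9 and Cxcl10, 7 were higher and 4 lower (median 0.03), led by Cd4 (0.23), Trac (-0.19) and Klrb1c (0.15). The macrophage list itself had 5 higher and 5 lower (median 0.05), led by the mannose receptor Mrc1 (-0.59), Fcgr1 (-0.23) and Adgre1 (0.37).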

How the data were processed

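The deposited table holds log2 expression values that the authors computed by RMA (affy 1.36.1), as the submitters' processing notes record. The log2 scale was read from the values and the method, and neither the probe definition nor a genome build is stated there. Scanner files were not used here, so signal over background was not checked. With 3 arrays a group, precision is limited by their number.

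Probe sets were named through the platform annotation (1 gene for 23185, several for 0, none for 2021). Genotypes were compared by two-sided moderated tests without covariates (lmFit, then eBayes; limma 3.58.1, R 4.3.3) over all 25206 probe sets, with Benjamini-Hochberg adjustment and a threshold of 0.05. The fit was run on simulated independent values to check that it returned the size of added changes. How often such changes would be called with 3 arrays a group is not given here. The members and the 13 lists (160 of 170 genes measured) were chosen with earlier results of these data known. All members were named, as were every other CXC ligand and receptor, the 3 genes of each other list with the smallest unadjusted p, and the 3 genes most like each of the 3 most variable members. Other genes named for context were chosen after their values were seen. Replicate numbers were not treated as pairs in the main test. Deviations from the group means correlated at 0.150, -0.215 and 0.112 for replicates 4, 5 and 6. With so few arrays these values cannot show whether the samples were paired. Alternatives were genotype by characteristic, the 2 samples with agreeing labels, a replicate block, variance model, array weights, normalization, a filter on dim probe sets, thresholds and leaving out each array.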

Additional observations from a re-analysis of the deposited data

How the results depend on the processing

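No CXC chemokine passed an adjusted p of 0.05 under any of the settings with a test, and 3 passed at an unadjusted p of 0.05, where 910 of all probe sets did. The count over all probe sets, 0, became 2 with array weights and lay between 0 and 19 when single arrays were left out (19 without Tet2-/- replicate 6, 1 without wild-type replicate 4). The median difference of the 10 genes, 0.178, was -0.035 over the members among the brighter probe sets and 0.051 to 0.192 with single arrays left out, lowest without Tet2-/- replicate 5. With the genotype taken from the characteristic, the sign turned for Cxcl1 (0.117), Ppbp (0.01), Pf4 (0.17), Cxcl9 (-0.223), Cxcl10 (-0.137) and Cxcl14 (0.163). Cxcl2 (0.173), Cxcl3 (0.113), Cxcl13 (0.22) and Cxcl16 (0.06) kept a smaller difference of the same sign. Ppbp also turned without wild-type replicate 6 (0.028) and without Tet2-/- replicate 6 (0.022), its values with single arrays left out running from -0.097 to 0.028. Between the 2 samples with agreeing labels Cxcl2 differed by 1.53, Cxcl13 by 1.59 and Cxcl14 by -0.93, with no test. The replicate block left the differences as they were (median 0.178), called 0 probe sets and gave limma adjusted p of 0.919 for Cxcl2 and 0.629 for Cxcl14. The cause of these shifts was not tested. Signal over background was not checked for genes low on the scale, such as Ppbp and Cxcl9. Nor was it checked for Cxcl2, which was below the array median on wild-type replicates 4 and 5.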
